A study of Capra hircus with 3 samples.

Results

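The miR-10/100 and miR-125 families were followed through the hair cycle of goat skin by the small RNA reads of 7 miRNA genes, miR-10a, miR-10b, miR-99a, miR-99b, miR-100, miR-125a and miR-125b. A read was assigned to an arm when its first 18 nt were those of a tag that the authors annotated for the precursor, where a tag is a distinct read sequence with its count. These 7 genes are among 336 precursors with an annotated tag, and they gave 15 mature arms, 7 from the 5′ side (5p) and 8 from the 3′ side (3p), of 470 arms counted in all. The list used here held no tag of miR-99a-5p or miR-125a-5p. Both were therefore taken as the most abundant unlisted start that differed by 1 base from miR-100-5p or shared the first 12 bases of miR-125b-5p, and neither was checked against a reference of mature miRNAs. In all, 1436 of the 4043974 distinct tags belonged to the 15 arms.

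The skin came from adult Shanbei White cashmere goats and was taken from the side of the body at anagen (growth), catagen (regression) and telogen (rest). For each stage RNA of 10 goats was pooled into 1 library, so neither animals nor the spread between them can be told apart, and no treatment or allele distinguishes the groups. Each comparison below is between 2 libraries, and its intervals cover counting error only, since reads amplified without molecular identifiers are not independent molecules.

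A mature miRNA guides silencing proteins to messenger RNAs mainly through its seed, bases 2 to 8 from the 5′ end. The genes of miR-10 lie inside the HOX clusters, which pattern the body axis, while those of miR-99, miR-100 and miR-125 lie in ancient clusters together with let-7. In skin, miR-125b is known for holding hair follicle stem cells in an undifferentiated state. The miR-99/100 members are known to restrain growth signalling through mTOR, and miR-125a is a close relative of miR-125b with the same seed.

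The most abundant tag of each 5p arm is printed because the arms fall into 3 seed families, whose seeds are shown in capitals.
miR-10a-5p: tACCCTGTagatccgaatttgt
miR-10b-5p: tACCCTGTagaaccgaatttgt
miR-99a-5p: aACCCGTAgatccgatcttgtg
miR-99b-5p: cACCCGTAgaaccgaccttgcg
miR-100-5p: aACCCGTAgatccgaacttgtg
miR-125a-5p: tCCCTGAGaccctttaacctgt
miR-125b-5p: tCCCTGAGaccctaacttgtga

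Counting positions from 1 at the 5′ end, the first 18 bases of miR-10a-5p and miR-10b-5p differed by T12A, with the base of miR-10a-5p first. Those of miR-99a-5p and miR-100-5p differed by T16A, with the base of miR-99a-5p first. The starts of miR-125a-5p and miR-125b-5p differed at 5 of the 18 bases, all behind the seed. A pair that differs at 1 base is kept apart by that base alone, so its separation rests on the accuracy of 1 base call.

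The libraries held 15997828 clean reads in the anagen library, then 18111912 in catagen and 27016012 in telogen. Levels are given as reads per 1000000 clean reads (TPM), and 3 reads, the limit that a count of 0 allows, correspond to 0.188, 0.166 and 0.111 TPM. The 3 muscle miRNAs miR-1, miR-206 and miR-133a together took 0.412% of clean reads in the anagen library, then 7.88% in catagen and 2.14% in telogen, while no tag of the fourth gene on that list, miR-133b, was held. Of 6 epithelial miRNAs, 5 had a held tag, and they summed to 1049.8, 1846 and 1927 TPM in the same order. This sum was mostly miR-205 (1005, 1794 and 1876 TPM), while miR-200a (1.38, 1.16 and 0.629 TPM) and miR-141 (10.1, 9.61 and 9.99 TPM) were not lower in anagen than in catagen. Tags of 18 to 20 nt made up 5.26%, 1.90% and 2.90% of the reads of all arms outside the 2 families. The anagen library thus held the fewest muscle reads, the lowest epithelial sum and the largest share of short tags, and the part of these in the differences below was not tested except where stated. Fewer cells that express a miRNA and less of it per cell cannot be told apart in these bulk samples.

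The 15 arms together were lower in anagen than in catagen and telogen. They summed to 41827 reads or 2615 TPM in anagen, then 90634 reads or 5004 TPM in catagen, and 138150 reads or 5114 TPM in telogen. Of these reads, 644, 719 and 916 were from 3p arms, so the 5p arms made up nearly the whole signal. All 7 of the 5p arms were lower in anagen than in either of the other libraries, except that miR-125a-5p was higher in anagen than in catagen when reads were scaled by size factors (log2 ratio 0.26).

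**Figure D1:**
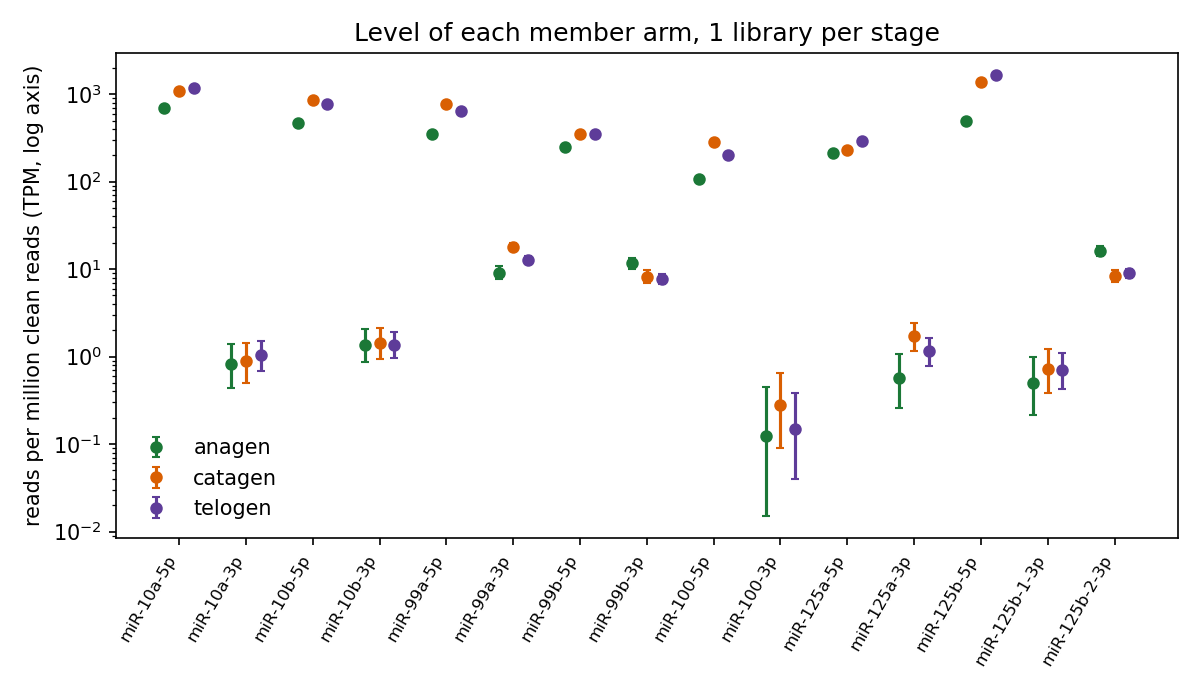
Level (TPM, log axis) of each of the 15 arms in the anagen, catagen and telogen libraries; bars are exact 95% intervals and cover counting error only. The 7 5p arms lie between 108 and 1642 TPM, with anagen the lowest point of each, whereas miR-99b-3p and miR-125b-2-3p have their highest point in anagen.

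The seed families did not share 1 profile over the cycle. The miR-10 seed stood at 1158 TPM in anagen, then 1941 in catagen and 1942 in telogen. The miR-99/100 seed stood at 707, 1407 and 1203 TPM, and the miR-125 seed at 709, 1616 and 1935 TPM. Between catagen and telogen, in TPM, the miR-10 sum did not differ beyond counting error (log2 catagen over telogen 0.00, 95% interval -0.02 to 0.02), the miR-99/100 sum was lower in telogen (0.23, 0.20 to 0.25) and the miR-125 sum was higher in telogen (-0.26, -0.28 to -0.24). These ratios moved with the scaling. Scaled to the reads of all miRNA arms, they were -0.31 for miR-10, -0.09 for miR-99/100 and -0.57 for miR-125, and with size factors they were -0.12, 0.11 and -0.38. The shares of the 5p reads do not depend on the scaling, but they do on the starts and tag lengths counted. The miR-10 seed took 45.0% in anagen, then 39.1% in catagen and 38.2% in telogen, and the miR-125 seed took 27.5%, 32.6% and 38.1%. At the starts counted, these 2 families were thus nearly equal in telogen. Tags that begin 1 base further on are left out of both sums. In telogen they had 4254 reads for miR-10a-5p and 4266 for miR-10b-5p, but 10 for miR-125a-5p and 27 for miR-125b-5p.

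miR-10a-5p, encoded next to HOXB genes, had 11038 reads (690.0 TPM) in anagen, then 19615 (1083 TPM) in catagen and 31423 (1163 TPM) in telogen. It was 1.57-fold lower in anagen than in catagen (log2 -0.65, -0.68 to -0.62) and 1.69-fold lower than in telogen (-0.75, -0.78 to -0.72). miR-10b-5p, encoded next to HOXD genes, had 7485 reads (468 TPM), 15547 (858 TPM) and 21050 (779 TPM) in the same order. Its ratios were -0.88 (-0.92 to -0.84) to catagen and -0.74 (-0.77 to -0.70) to telogen. Between catagen and telogen the pair moved apart: miR-10a-5p was slightly higher in telogen (log2 catagen over telogen -0.10) and miR-10b-5p slightly lower (0.14), although the latter turned to -0.17 with scaling to all arm reads. Within a library no scaling enters, and miR-10a-5p exceeded miR-10b-5p by 1.47-fold in anagen, 1.26-fold in catagen (1.24 to 1.29) and 1.49-fold in telogen.

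In the miR-99/100 family, miR-99a-5p had 5587 reads (349 TPM) in anagen, then 13959 (771 TPM) in catagen and 17428 (645 TPM) in telogen. It was 2.21-fold lower in anagen than in catagen (log2 -1.14, -1.19 to -1.10), and its ratio to telogen was -0.89 (-0.93 to -0.84). With size factors the ratio to catagen was -0.76, within 2-fold. miR-100-5p, which differs from it by 1 base, had 1724 reads (108 TPM), 5188 (286 TPM) and 5461 (202 TPM). It was 2.66-fold lower in anagen than in catagen (log2 -1.41, -1.49 to -1.33) and stood higher in catagen than in telogen (0.50, 0.45 to 0.56). miR-99a-5p and miR-100-5p were thus both highest in catagen, and miR-99a-5p outnumbered miR-100-5p 3.24-fold in anagen, 2.69-fold in catagen and 3.19-fold in telogen. For miR-99a-5p the order of catagen and telogen turned with scaling to all arm reads (log2 -0.057). miR-99b-5p was flatter than both, with 4004 reads (250.3 TPM), 6331 (349.5 TPM) and 9599 (355 TPM). Its catagen and telogen levels in TPM did not differ beyond counting error (log2 -0.02, -0.07 to 0.02), but the ratio was -0.34 with scaling to all arm reads and -0.14 with size factors. Its ratio of anagen to catagen was -0.48 (-0.54 to -0.42).

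miR-125b-5p had the largest difference of the 5p arms in both comparisons with anagen. It had 7965 reads (498 TPM) in anagen, then 25103 (1386 TPM) in catagen and 44352 (1642 TPM) in telogen. This is 2.78-fold lower in anagen than in catagen (log2 -1.48, -1.51 to -1.44) and 3.30-fold lower than in telogen (-1.72, -1.76 to -1.69). Against catagen its interval overlapped that of miR-100-5p (-1.41, -1.49 to -1.33), and against telogen it overlapped that of no other 5p arm. By contrast, miR-125a-5p had 3380 reads (211 TPM), 4172 (230.3 TPM) and 7921 (293 TPM), which is a log2 ratio of -0.12 (-0.19 to -0.06) to catagen and -0.47 (-0.53 to -0.41) to telogen. The 2 miRNAs of this seed therefore stood in a ratio of 2.36 to 1 in anagen (2.26 to 2.45), 6.02 to 1 in catagen (5.82 to 6.22) and 5.60 to 1 in telogen (5.47 to 5.74). With tags of 21 nt or longer only, the ratios were 3.31, 5.82 and 6.18 to 1.

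The order of the arms by level also changed between libraries. miR-10a-5p led in anagen, followed by miR-125b-5p, miR-10b-5p, miR-99a-5p, miR-99b-5p, miR-125a-5p and miR-100-5p. In catagen and telogen miR-125b-5p led, with miR-10a-5p second. miR-100-5p was above miR-125a-5p in catagen only. In each library the 95% counting intervals of neighbours in this order did not overlap, but a spread between pools of goats is not known. The order also turned with the starts counted. In anagen, 1565 reads of miR-10b-5p began 1 base further on, beside 7485 at its main start. For miR-125b-5p these were 0 and 7965, so with both starts miR-10b-5p was above it. The order turned with tag length as well. With tags of 21 nt or longer, miR-10b-5p (460 TPM) was above miR-125b-5p (431 TPM) in anagen. With 22 nt or longer, miR-10a-5p (1032 TPM) was above miR-125b-5p (938 TPM) in catagen. There miR-125a-5p (212 TPM) was also above miR-100-5p (189 TPM). Levels of different miRNAs also carry ligation and amplification bias, so their order is one of reads.

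Set against all arms, the 2-fold limit did not single out the families. Of the 12 member arms with at least 1 TPM in anagen or catagen, 4 were more than 2-fold lower in anagen, namely miR-99a-5p, miR-100-5p, miR-125b-5p and miR-125a-3p, and 26.2% of all 294 arms tested passed the same limit. In the comparison of anagen with telogen, 2 of 13 member arms were more than 2-fold lower in anagen, miR-125b-5p and miR-125a-3p, against 20.9% of 292 arms. Between catagen and telogen 0 of 13 member arms passed 2-fold in either direction, against 14.0% of 292 arms. These shares were near the background or below it. The 1 arm among them with few reads, miR-125a-3p, rested on 9 reads in anagen, then 31 in catagen and 31 in telogen.

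The median log2 ratio of the 5p member arms was -0.88 for anagen over catagen and -0.75 for anagen over telogen, beside -0.42 and -0.31 over all arms. Among all arms 68.4% and 63.0% were below 0 in these comparisons, so most arms tested had lower TPM in anagen. These are arms held by the shortened list used here, which lacks the main tags of some miRNAs. Scaling by size factors moved the median of all arms by 0.38 in the first comparison and 0.26 in the second. With it the share of all arms more than 2-fold lower or higher in anagen than in catagen went from 26.2% and 6.12% to 11.2% and 8.84%. Counted from the lowest ratio, miR-125b-5p held place 27 of 294 against catagen and place 25 of 292 against telogen, and miR-100-5p held places 31 and 69. miR-125a-5p lay at places 188 and 126, nearer the middle. When the muscle miRNAs were left out of the scaling, an alternative added after the data were seen, the 5p members still ran from -1.59 to -0.24 for anagen over catagen.

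**Figure D2:**
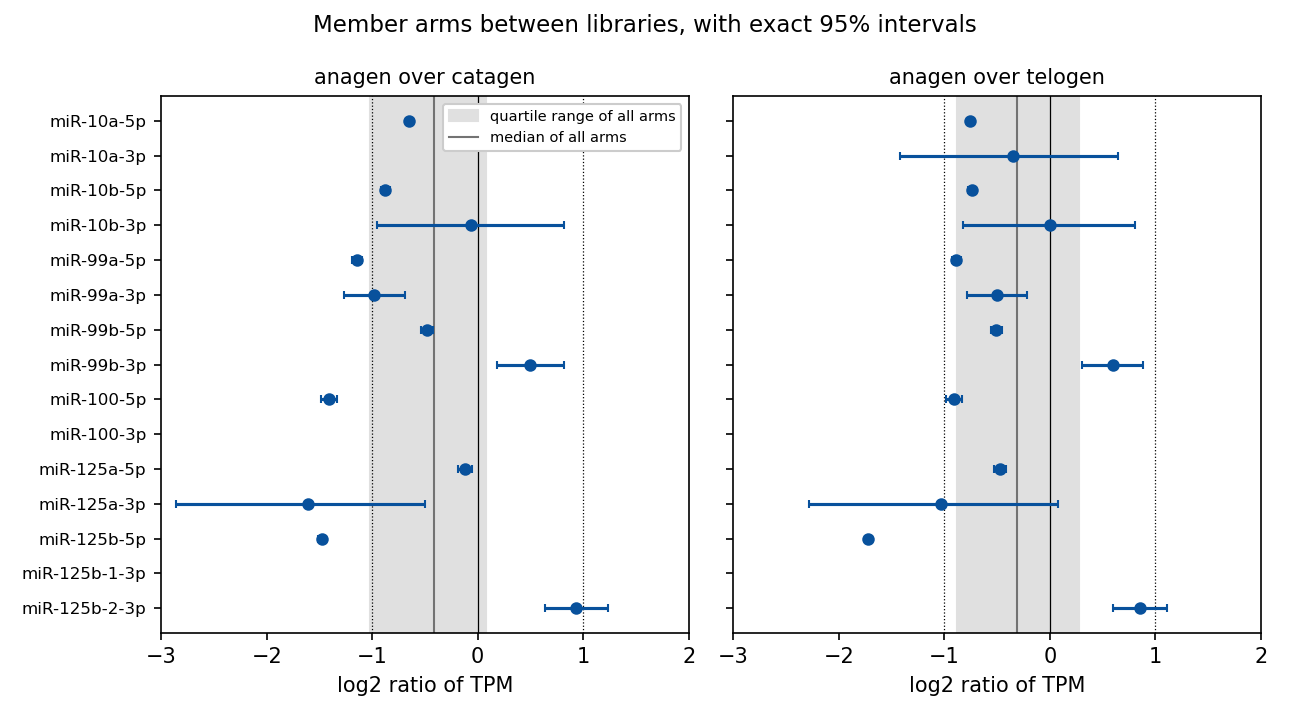
Log2 ratio of TPM of each arm with at least 1 TPM in one of the libraries compared, for anagen over catagen (left) and anagen over telogen (right); bars are exact 95% intervals, dotted lines mark 2-fold, and the grey band and line are the range between quartiles and the median of all arms. The 5p arms lie left of 0 in both panels, while miR-99b-3p and miR-125b-2-3p lie right of it.

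The length of the miR-125a-5p tags changed with the library more than that of the other 5p arms. Its 3 length forms with the largest shares are shown, with the seed in capitals.
20 nt form: tCCCTGAGaccctttaacct
22 nt form: tCCCTGAGaccctttaacctgt
23 nt form: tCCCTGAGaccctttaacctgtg

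The 20 nt form had 1142 reads in anagen, then 118 in catagen and 1009 in telogen, which is 33.8%, 2.83% and 12.7% of the reads of miR-125a-5p. The 22 nt form went the other way, with 936, 2078 and 3062 reads or 27.7%, 49.8% and 38.7%. In anagen the shortened form was therefore the most abundant tag of this miRNA. All tags of 18 to 20 nt were 38.3% of miR-125a-5p reads in anagen (95% Wilson interval 36.7 to 39.9%), then 3.60% in catagen (3.07 to 4.20%) and 14.1% in telogen (13.3 to 14.8%).

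How miR-125a-5p compared between libraries depended on this length. Its tags of 18 to 20 nt were higher in anagen than in catagen (log2 3.29, 3.04 to 3.54), and those of 21 nt or longer were lower (-0.77, -0.85 to -0.69). With 22 nt or longer the ratio was -1.16 (-1.24 to -1.07) to catagen and -1.19 (-1.27 to -1.11) to telogen, both past 2-fold. For miR-125b-5p the ratio to catagen was -1.48 with all tags, -1.58 with 21 nt or longer and -1.50 with 22 nt or longer. With 22 nt or longer the ratios of the 2 arms to catagen thus lay nearer each other than with all tags.

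Short tags were more common in anagen for most other arms counted. Of 141 other arms with at least 100 reads in each library, 126 or 89.4% had a larger share of 18 to 20 nt tags in anagen than in catagen, with a median share of 8.10% in anagen, then 2.26% in catagen and 3.61% in telogen. Ordered by the rise of that share, miR-125a-5p ranked 14 of 151 arms with that depth. miR-99a-5p was at 9.95% in anagen and 2.89% in catagen, and miR-125b-5p at 13.4% and 6.83%. In the miR-10 arms such tags were rarer but also more common in anagen, at 2.67% and 0.719% for miR-10a-5p and at 1.74% and 0.888% for miR-10b-5p.

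**Figure D3:**
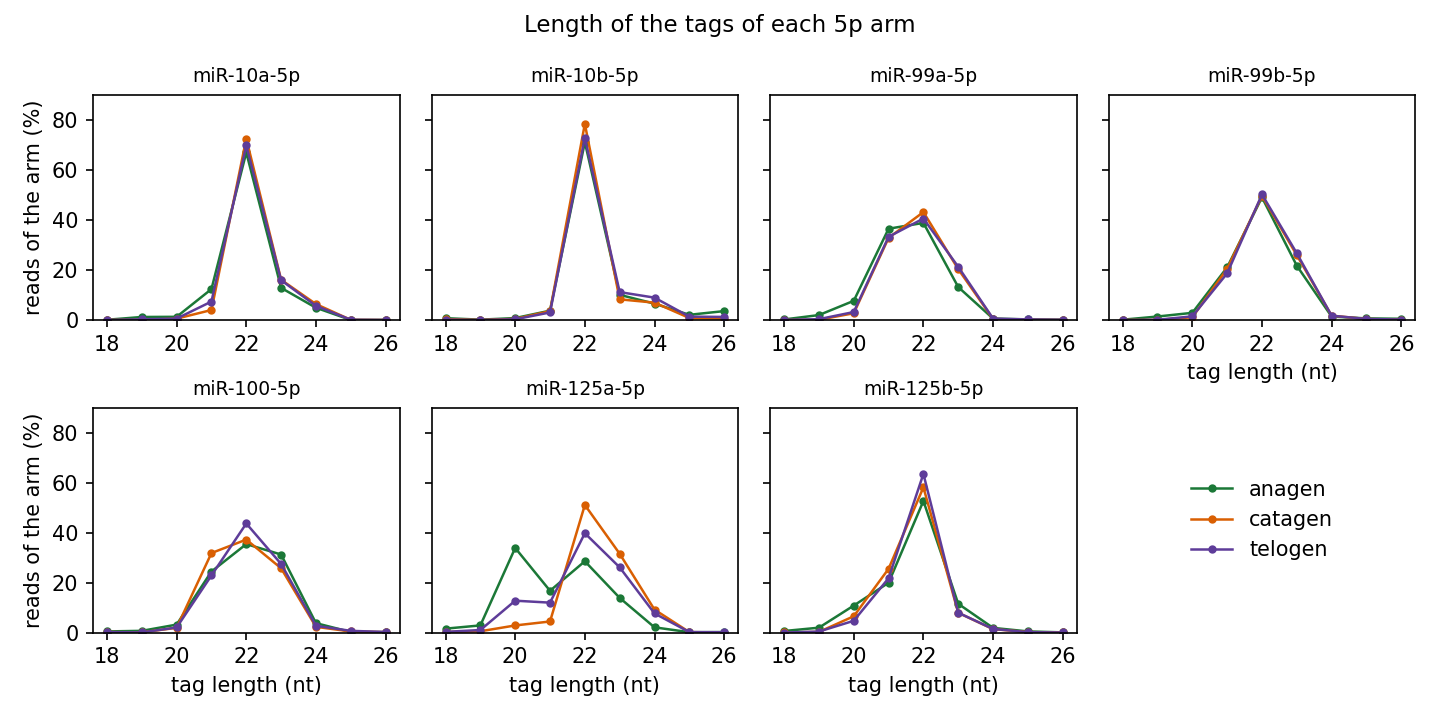
Share of the reads of each 5p arm (%) by tag length (18 to 26 nt) in the anagen, catagen and telogen libraries. Each arm has its highest point at 22 nt in every library, except miR-125a-5p, which in anagen is highest at 20 nt (33.8%).

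The 5′ start decides the seed, and the miR-10 arms had a second start. Tags that begin 1 base on carry the seed CCCTGTA instead of ACCCTGT, and their most abundant forms are shown with that seed in capitals.
miR-10a-5p, 1 base on: aCCCTGTAgatccgaatttgtga
miR-10b-5p, 1 base on: aCCCTGTAgaaccgaatttgtgt

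For miR-10a-5p this start had 1598 reads in anagen, then 2241 in catagen and 4254 in telogen, beside those at the annotated start. It made up 12.6% (12.1 to 13.2%), 10.2% (9.84 to 10.6%) and 11.9% (11.6 to 12.2%) of all reads that began from 2 bases before to 3 bases after the annotated start. For miR-10b-5p the shifted start had 1565, 2796 and 4266 reads, or 17.3% (16.5 to 18.1%), 15.2% (14.7 to 15.8%) and 16.8% (16.4 to 17.3%). In both arms the share was lowest in catagen, by intervals that did not overlap those of the other libraries. The most abundant shifted tags were 23 nt long, so they also reached further at the 3′ end than the 22 nt tag of the annotated start. That of miR-10a-5p ends in A, where the longest annotated tag has T. This form had 625, 849 and 1785 reads, against 163, 195 and 432 for the form with T. That of miR-10b-5p ends in T, the annotated base. Whether the A is encoded was not tested. Reads at the shifted start are not part of the levels given above.

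The other 5p arms were more precise at this end. Starts 1 base on made up 1.55%, 1.31% and 1.22% of miR-99b-5p in anagen, catagen and telogen, and 2.10%, 1.83% and 1.41% of miR-100-5p. miR-99a-5p had instead a start 1 base before the main one, at 2.03%, 1.92% and 2.13%. For miR-125a-5p and miR-125b-5p no other start in the same window reached 1% in any library.

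**Figure D4:**
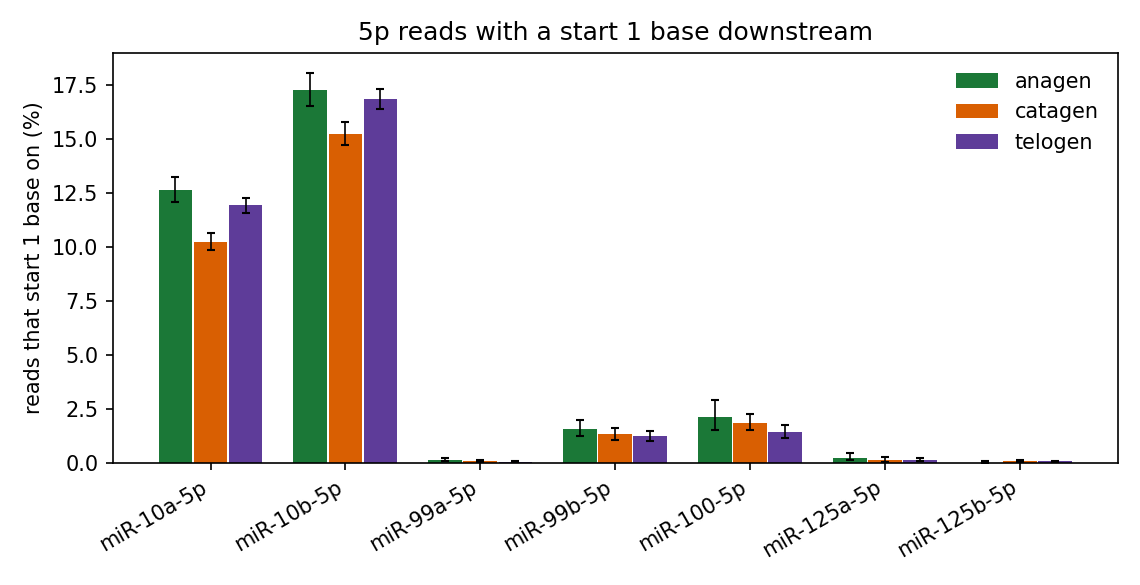
Share of reads (%) of each 5p arm that start 1 base downstream of the main start in the anagen, catagen and telogen libraries; bars start at 0 and error lines are 95% Wilson intervals. miR-10a-5p (10.2 to 12.6%) and miR-10b-5p (15.2 to 17.3%) stand above the other arms.

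At the 3′ end, tags 1 base longer than the main form ended mostly in A in 4 arms. They are shown with the added base in capitals.
miR-99a-5p with A: aacccgtagatccgatcttgtgA
miR-99b-5p with A: cacccgtagaaccgaccttgcgA
miR-100-5p with A: aacccgtagatccgaacttgtgA
miR-125b-5p with A: tccctgagaccctaacttgtgaA

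Among the tags of miR-125b-5p that were 1 base longer, A was added in 94.6% of reads in anagen, then 92.5% in catagen and 93.1% in telogen. The longest annotated tag has G at this place. For miR-100-5p the share of A was 83.8%, 82.9% and 79.4%, and the longest annotated tag again has G. miR-99b-5p was split between A (54.0%, 57.3% and 54.5%) and T (43.9%, 41.1% and 43.7%), with G at 1.73%, 1.15% and 0.991%. A and T were thus more frequent than the base of the longest annotated tag for these 3 arms in every library. As miR-125b-5p comes from more than 1 locus, that tag need not give the encoded base of each.

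For miR-99a-5p the added base was A in 69.6%, 75.8% and 78.1% and T in 29.5%, 24.0% and 21.6%, but no annotated tag was held to compare with. At their main start the miR-10 arms differed. The annotated G was added in 93.5%, 92.0% and 92.8% for miR-10a-5p and in 82.3%, 86.3% and 84.7% for miR-10b-5p. miR-125a-5p also continued with G, in 94.0%, 95.7% and 96.3%. Whether a base was encoded in the goat genome was not tested, since no genome was used. As a share of all reads of the arm, the form with A was largest for miR-100-5p, at 26.1% in anagen, then 21.1% in catagen and 21.6% in telogen, and it was 10.7%, 7.21% and 7.32% for miR-125b-5p. For miR-99a-5p it was lower in anagen, at 9.07%, than in catagen (15.3%) and telogen (16.5%).

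Starts that differ from a member by 1 substitution were counted to see how many reads fall beside the exact match. For miR-99a-5p the most frequent was A1G, at 140 reads in anagen, then 478 in catagen and 523 in telogen, or 2.44%, 3.31% and 2.91% of the reads with either base. For miR-100-5p it was A1T in catagen and telogen, with 1, 91 and 226 reads or 0.058%, 1.72% and 3.97%. Their most abundant tags are shown with the changed base in capitals.
miR-99a-5p with A1G: Gacccgtagatccgatcttgtg
miR-100-5p with A1T: Tacccgtagatccgaacttgtg

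Both changes lie outside the seed. The median over the 53 substitutions of miR-99a-5p was 0.0179%, 0.0072% and 0.0115%, so A1G stood above the usual level in each library. The A1T start of miR-100-5p, by contrast, was common in telogen and had 1 read in anagen. A1G of miR-100-5p, the same change at the same position, had 0, 1 and 1 reads. Such starts were left out of the levels above, and their source was not tested. In anagen, A-to-C changes at some positions were also raised. A15C of miR-125b-5p had 0.462% there against 0.008% in catagen and 0.0045% in telogen, and A8C of miR-99a-5p had 40 reads there (0.711%) and 0 in the others. Telogen had raised changes at position 5. T5A of miR-125b-5p had 1, 2 and 97 reads in anagen, catagen and telogen, and C5A of miR-10a-5p had 1, 2 and 69.

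The 3p arms are the strands that are mostly discarded, and here they are shown because miR-99b and miR-125b went against their 5p arms. Their seeds are in capitals.
miR-99a-3p: cAAGCTCGcttctatgggtctgt
miR-99b-3p: cAAGCTCGtgtctgtgggtccgt
miR-125b-2-3p: aCAAGTCAggctcttggga
miR-125b-1-3p: aCGGGTTAggctcttgggaga

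miR-99b-3p had 186 reads (11.6 TPM) in anagen, then 149 (8.23 TPM) in catagen and 208 (7.70 TPM) in telogen. Its log2 ratio of anagen to catagen was 0.50 (0.18 to 0.82), while that of miR-99b-5p was -0.48. The 3p share of miR-99b reads was 4.44% (3.86 to 5.11%) in anagen, then 2.30% (1.96 to 2.69%) in catagen and 2.12% (1.85 to 2.43%) in telogen. This held for tags of 21 nt or longer, at 4.52%, 2.27% and 2.10%. miR-99a-3p, with the same seed, kept pace with its 5p arm, with 146, 326 and 348 reads and a 3p share of 2.55%, 2.28% and 1.96%.

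The 2 loci of miR-125b give 1 5p sequence but separate 3p arms. miR-125b-2-3p had 258 reads (16.1 TPM) in anagen, then 153 (8.45 TPM) in catagen and 241 (8.92 TPM) in telogen, a log2 ratio of 0.93 (0.64 to 1.23) to catagen. miR-125b-1-3p had 8, 13 and 19 reads, too few for a ratio between libraries. The first locus gave 3.01%, 7.83% and 7.31% of the 3p reads, but 18.6%, 15.2% and 13.1% of those of 21 nt or longer. The 3p share of miR-125b was 3.23% (2.87 to 3.64%), 0.657% (0.565 to 0.764%) and 0.583% (0.516 to 0.658%), but it was 0.619%, 0.281% and 0.199% when only tags of 21 nt or longer were counted. Tags of 18 to 20 nt were 86.4% of miR-125b-2-3p in anagen, then 63.4% in catagen and 69.7% in telogen. For the longer tags the ratio was -0.50 (-1.15 to 0.14), so the higher level in anagen rested on short tags.

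The remaining 3p arms were rare. miR-10a-3p had 13, 16 and 28 reads, miR-10b-3p had 22, 26 and 37 reads, and miR-100-3p had 2, 5 and 4 reads in anagen, catagen and telogen. Their ratios had intervals that included 0. miR-125a-3p had a log2 ratio of -1.61 (-2.86 to -0.50) to catagen, and its interval for anagen over telogen included 0 (-1.03, -2.28 to 0.08).

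**Figure D5:**
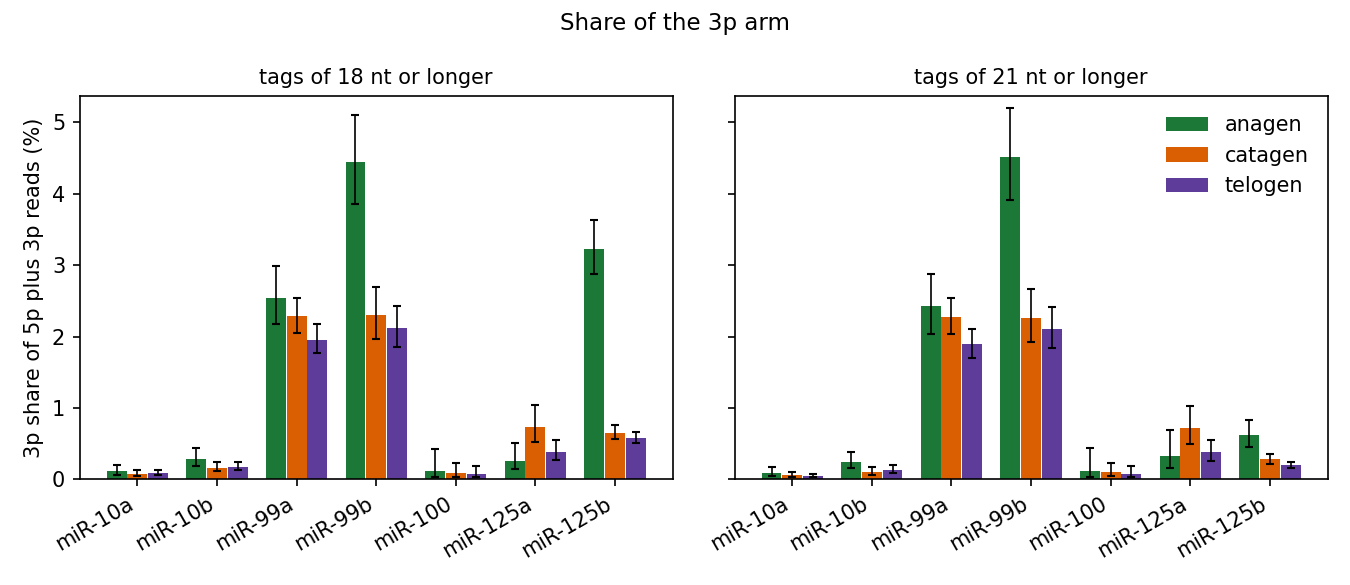
Share of 3p reads among the 5p and 3p reads (%) of each gene in the anagen, catagen and telogen libraries, for tags of 18 nt or longer (left) and of 21 nt or longer (right); bars start at 0 and error lines are 95% Wilson intervals. The anagen bar of miR-99b stays near 4.5% in both panels, while that of miR-125b drops from 3.23% to 0.619%.

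The neighbours of these genes were read in RefSeq (assembly ARS1.2), where 6 of the 7 were matched by symbol and MIR125A was not. MIR99A, MIRLET7C and MIR125B follow each other, MIR99B lies beside MIRLET7E, MIR10A lies by HOXB3 and HOXB5 with MIR196A as the nearest miRNA, and MIR10B lies by HOXD3. The nearest annotated miRNAs to MIR100 were MIR34C and MIR34B, and no let-7 gene was listed beside it. let-7e, the partner of miR-99b, stood at 2813 TPM in anagen, then 2279 in catagen and 2167 in telogen. Its log2 ratio of anagen to catagen was 0.30 (0.28 to 0.32), against -0.48 for miR-99b-5p. let-7c, counted by its first 20 bases, stood at 22096, 18762 and 18672 TPM, a ratio of 0.24 (0.23 to 0.24), against -1.14 for miR-99a-5p and -1.48 for miR-125b-5p. In TPM the let-7 partners were therefore higher in anagen, while miR-99b-5p, miR-99a-5p and miR-125b-5p were lower. For let-7c over telogen the ratio turned from 0.24 to -0.07 with scaling to all arm reads. The opposite arms went both ways for anagen over catagen. miR-99b-3p (0.50) and miR-125b-2-3p (0.93, but -0.50 with tags of 21 nt or longer) were higher in anagen, while miR-99a-3p (-0.98) was lower. As miR-125b-5p sums reads of separate loci, its ratio need not be that of the locus beside let-7c. let-7a, which shares its first 18 bases with let-7c, was not counted separately.

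Other miRNAs of the HOX clusters were lower in anagen too, at far lower levels than miR-10. miR-196a had 72 reads (4.50 TPM) in anagen, then 238 (13.1 TPM) in catagen and 619 (22.9 TPM) in telogen, a log2 ratio of -1.55 (-1.95 to -1.16) to catagen. miR-196b had 1, 42 and 49 reads. miR-615 had 34, 46 and 137 reads, and its ratio to catagen had an interval that included 0 (-0.26, -0.94 to 0.41) and turned to 0.13 with size factors.

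Among 141 arms with at least 100 reads in each library, the 3 whose ratios of anagen to catagen and to telogen lay nearest those of miR-125b-5p were miR-495, miR-31 and miR-652, with distances of 0.27, 0.46 and 0.49 on the log2 scale over both ratios. miR-495 had 130, 487 and 771 reads, or ratios of -1.73 and -1.81. With 3 libraries this likeness is a description only.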

How the data were processed

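Small RNA reads of goat skin were measured in 3 libraries, 1 per stage. The authors removed low quality and adapter reads and reads under 18 nt, and the deposited counts give reads per distinct tag, without normalisation. These counts precede alignment. The authors later mapped clean reads to a goat genome with SOAP and annotated them with cattle miRNAs of miRBase; a build name is not given in the sources used here. The 3 deposited tables were joined by sequence, and tags were assigned to arms by their first 18 nt against the annotation of the authors, of which a shortened copy with 2697 distinct tags was used. Starts within 5 nt on 1 precursor arm were summed. A miRNA whose tags that copy does not hold was not counted. The dermal list fixed for this work (miR-199a, miR-199b, miR-214, miR-143, miR-145) was held through minor tags (1 read of miR-199a in anagen) and summed to 335, 125 and 125 TPM. Its higher sum in anagen was miR-143 (308, 83.3 and 87.9 TPM), while miR-145 (26.6, 39.9 and 35.6 TPM) and miR-214 (0.625, 1.49 and 1.63 TPM) were lower there. This sum leaves out most reads of miR-199a and miR-143. The paper lists far more reads of miR-199a-3p, fewest in anagen, and of miR-143, fewest in catagen. Red cell miRNAs (miR-451, miR-144, miR-486) summed to 1312, 2137 and 878 TPM. miR-122 of liver or serum had 24.8, 1.99 and 1.22 TPM.

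Reads were scaled by clean reads. An arm with at least 1 TPM in a library of a pair was tested against a limit of 2-fold. Intervals of ratios and levels are exact (Clopper-Pearson) and those of shares are Wilson, at 95%. As a stage has 1 library, edgeR's quasi-likelihood test cannot be run and no p-value is given. Alternatives were other scalings (all arm reads, size factors), minimum levels, tag lengths, starts, the Audic-Claverie test at 0.01, and an exact test in edgeR 4.0.16 (R 4.3.3) with an assumed coefficient of variation of 0.4. Counts were also simulated with changes set well beyond 2-fold and no spread between pools. Of changed arms with at least 100 reads, 54 of 54 were found for anagen over catagen, among 470 arms. Such recovery was built in, so it checks the computation and not the sensitivity of these libraries. Computations used Python 3.11.15, pandas 2.3.3, scipy 1.17.1 and matplotlib 3.10.9.

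The members and lists were chosen with earlier results of these data known. All member arms are named, as are variants with at least 5% of an arm in a library (6 at most per arm, of which the text gives those a result turns on). Rare starts, substitutions and read forms under 5% were chosen after their values were seen.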

Additional observations from a re-analysis of the deposited data

How the results depend on the processing

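The number of member arms past 2-fold was 4 between anagen and catagen, 2 between anagen and telogen and 0 between catagen and telogen. For anagen over catagen it was 0 with the edgeR exact test at an assumed coefficient of variation of 0.4, which 7.48% of all arms passed, and between 3 and 6 under every other alternative tried, where 20.1 to 42.5% of all arms passed. With size factors the count stayed at 4, but miR-99a-5p (-0.76) left it and miR-125b-2-3p (1.32, higher in anagen) entered. For anagen over telogen it was 6 of 13 with scaling to the reads of all miRNA arms, against 37.7% of all arms. It was 1 with tags of 21 nt or longer (26.5% of all arms), a minimum of 10 TPM (19.4%), unlisted starts within 2 nt (26.7%), the Audic-Claverie test (24.7%) and the edgeR test (9.93%). For catagen over telogen it was 1 with the most abundant tag only (20.3% of all arms) and 1 with tags of 22 nt or longer (12.6%). Of 304 single ratios recomputed, 27 turned sign. In 3 of these the intervals before and after both excluded 0: miR-125a-5p for anagen over catagen became 0.26 with size factors, and for catagen over telogen miR-10b-5p became -0.17 and miR-99a-5p became -0.057 with scaling to all arm reads. In the other 24 an interval included 0, as for miR-10b-3p in each comparison, miR-99b-3p between catagen and telogen, and miR-125b-2-3p for anagen over catagen (-0.50 with tags of 21 nt or longer). Direction and side of the limit both held in 254, while 19 passed the limit and 4 no longer did. Scaling to all arm reads moved the median of all arms by -0.31 for anagen over telogen. The cause of these shifts was not tested, beyond the fewer arms left by a higher minimum. The unlisted starts, the 22 nt limit and the scaling without muscle miRNAs were chosen after seeing the data.

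Leaving out a replicate was not done. No paired analysis was possible because each stage has 1 library. Depth limits miR-100-3p, miR-10a-3p, miR-125b-1-3p and miR-125a-3p, whose 2 to 31 reads per library leave wide intervals.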
